A study of Mus musculus with 22 samples.

Results

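Voltage-gated sodium channel genes were followed across 6 cell types of the mouse brain in mRNA recovered from tagged ribosomes. The 7 genes, chosen by symbol, were 4 that encode pore-forming alpha subunits (Scn1a, Scn2a, Scn3a and Scn8a) and 3 that encode auxiliary beta subunits (Scn2b, Scn3b and Scn4b), out of 55385 genes in the transcript index. All 7 were among the 20843 genes that passed the filter on low counts and were tested.

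Alpha subunits form the sodium-selective pore that opens on depolarisation and carries the rising phase of the action potential. In the central nervous system Scn1a encodes Nav1.1, Scn2a encodes Nav1.2, Scn3a encodes Nav1.3 and Scn8a encodes Nav1.6. Beta subunits are single-pass membrane proteins with an immunoglobulin-like extracellular domain that tune channel gating and surface delivery. Scn2b and Scn4b encode subunits that are linked to the pore by a disulphide bond, whereas the subunit encoded by Scn3b associates without one. Channels are concentrated at the axon initial segment, where the scaffold ankyrin-G (Ank3) anchors them.

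All mice were 6 weeks old and carried 1 floxed RiboTag allele (Rpl22 Fl/+), which adds an HA epitope to ribosomal protein L22 after Cre recombination, so that ribosome-bound mRNA could be pulled down from the cells that had expressed Cre. Dentate gyrus granule cells were taken from hippocampus and layer V cortical neurons from cortex, both with Rbp4-Cre, and cerebellar granule cells from cerebellum with Gabra6-Cre. Inhibitory interneurons came from hippocampus with Dlx6a-Cre, and each of those libraries pooled 2 mice. Astrocytes (genotype labelled Aldh1-cre, an inducible Aldh1l1-cre/ERT2 line in the methods) and microglia (Tmem119-cre, also inducible) came from cortex of mice that had received tamoxifen by gavage on 5 consecutive days from 3 weeks of age. The neuronal Cre lines are not tamoxifen-inducible, so tamoxifen and glial identity cannot be told apart here. Each cell type had 3 replicates, described as biological in the study, and no untagged control library was analysed here. Of the 22 libraries, 4 were second sequencing runs of a replicate in another batch, so that 18 libraries entered the fits. All interneuron and microglia libraries were of batch 2 and the others of batch 1, and cell type and batch are therefore partly confounded.

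Estimated counts summed to between 38270477 and 97992957 per library. Of 29 marker genes of the 6 cell types, 26 were higher in every library of their own type than in every other library. The exceptions were 3 of the 4 layer V markers (Bcl11b, Etv1 and Rbp4), all of which were measured in layer V libraries but were higher in some other type. The libraries were not free of mRNA from other cells. The summed TPM (the deposited abundance unit, scaled to transcript length and to a fixed library total) of 5 pan-neuronal markers was 826 to 1090 in astrocytes and 383 to 429 in microglia, against 3221 or more in every neuronal library. The summed TPM of 5 oligodendrocyte markers was 2551 to 2726 in interneurons and at most 898 elsewhere. In layer V neurons, replicate 1 carried a different sex label in each batch, and Ddx3y, a Y-linked gene, was at 0.034 TPM in the batch 2 library labelled male. That library entered only the alternative fits.

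Levels of 1 gene were compared between cell types as library-scaled counts (CPM, with TMM factors), and levels of different genes as TPM. A gene was called where the adjusted p of edgeR's quasi-likelihood test, over all 20843 genes, was at or under 0.05. In bulk ribosome-bound mRNA, fewer cells of a type and less mRNA per cell cannot be told apart, and a level is that of the tagged fraction as a whole.

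The 4 neuron types differed in which sodium channel genes made up their summed TPM. In cerebellar granule cells Scn2a made up most of the alpha sum and Scn2b nearly all of the beta sum. Scn3b was the leading beta gene, and Scn1a was low, in dentate gyrus granule cells. In layer V neurons Scn4b was prominent, and in interneurons Scn1a led the alpha genes. Scn8a was at a like level in all 4 neuron types.

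**Figure D1:**
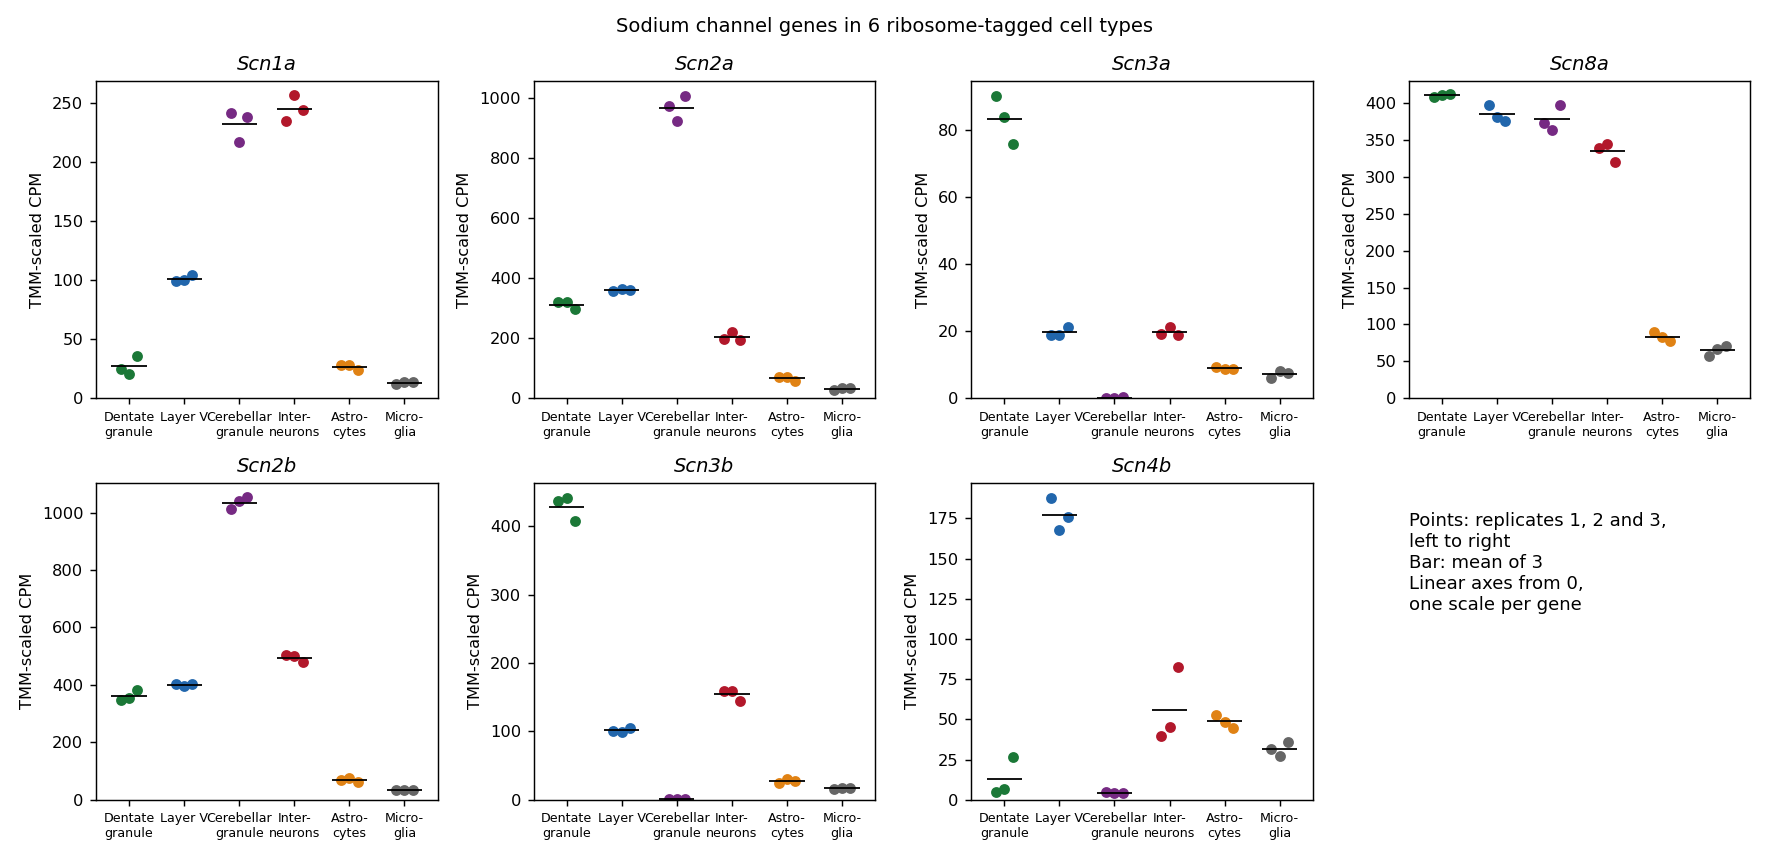
Level of each sodium channel gene in the 18 libraries (linear axes from 0, TMM-scaled CPM, 1 scale per gene), with points for replicates 1, 2 and 3 from left to right and a bar for the mean. Scn1a, Scn2a, Scn3a, Scn3b and Scn4b differ many-fold between neuron types, whereas Scn8a lies between 321 and 413 CPM in all neuronal libraries.

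Among the alpha genes, the summed TPM was highest in cerebellar granule cells at 438 ± 22.2 (SD, n = 3 here and below). It was 216 ± 15.3 in interneurons, 212 ± 4.13 in dentate gyrus granule cells and 177 ± 3.76 in layer V neurons, and it was 41.6 ± 5.89 in astrocytes and 26.6 ± 2.72 in microglia. The share of Scn2a in that sum was 68.8 ± 0.22% for cerebellar granule cells, 49.0 ± 0.33% for layer V neurons, 45.5 ± 0.88% for dentate gyrus granule cells and 30.8 ± 0.71% for interneurons. For Scn1a, interneurons gave 37.0 ± 0.51% and dentate gyrus granule cells 4.15 ± 1.15%. The share ranges of Scn1a in interneurons and Scn2a in interneurons did not overlap, so interneurons were the 1 neuron type with Scn1a ahead of Scn2a.

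Among the 3 beta genes, cerebellar and dentate gyrus granule cells had summed TPM of 411 ± 4.80 and 408 ± 22.5, with overlapping ranges, but the genes behind it differed. Scn2b made up 99.5 ± 0.055% of the cerebellar sum and 37.4 ± 1.67% of the dentate gyrus sum, where Scn3b made up 61.5 ± 2.72%. Scn4b took 21.4 ± 0.94% in layer V neurons, 6.32 ± 2.65% in interneurons, and at most 2.33% in any library of the 2 granule cell types. The ratio of summed beta to summed alpha TPM was 1.92 ± 0.093 for dentate gyrus granule cells and 0.94 ± 0.054 for cerebellar ones.

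**Figure D2:**
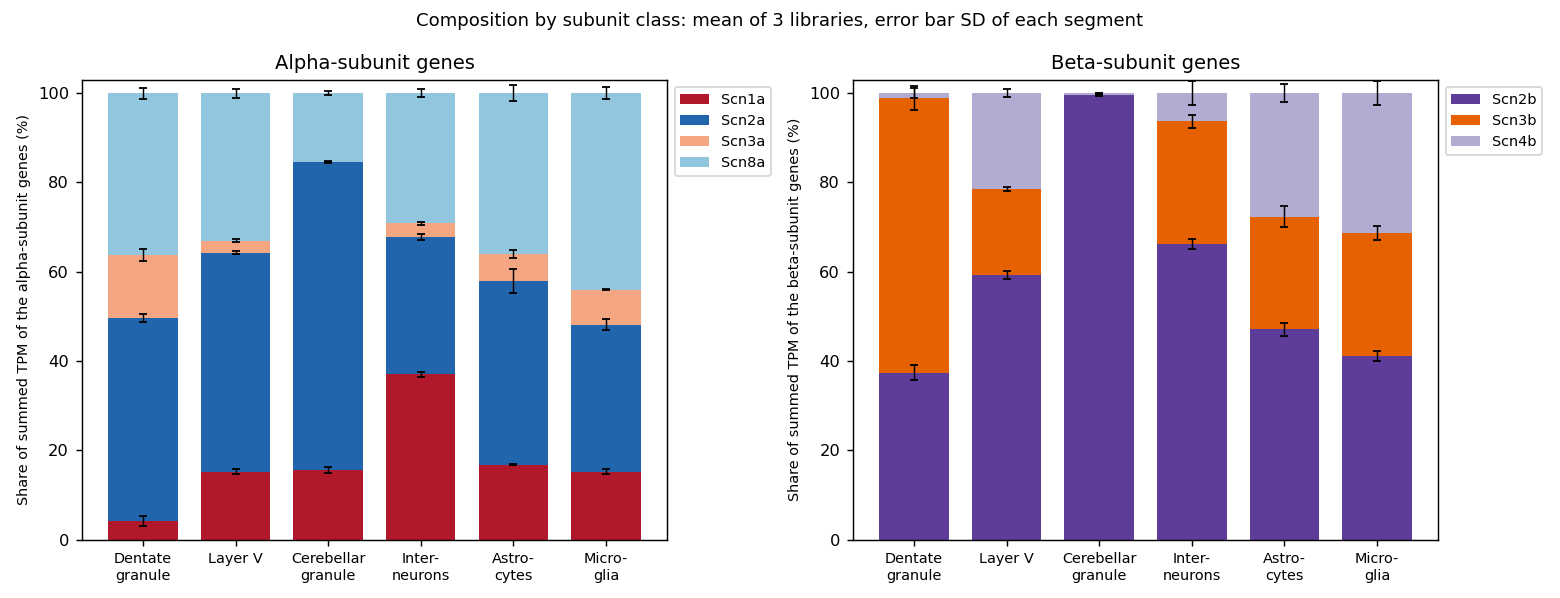
Share of each gene in the summed TPM of the 4 alpha-subunit genes (left) and the 3 beta-subunit genes (right), as the mean of 3 libraries per cell type, with the SD of each segment as its error bar. Scn2a and Scn2b fill 68.8% and 99.5% of their classes in cerebellar granule cells, Scn1a reaches 37.0% in interneurons and Scn3b 61.5% in dentate gyrus granule cells.

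Scn1a was high in interneurons and cerebellar granule cells, intermediate in layer V neurons and low in dentate gyrus granule cells. In interneurons it was at 235, 256 and 244 CPM in replicates 1, 2 and 3, and in cerebellar granule cells at 241, 216 and 238. Layer V neurons had 98.6, 100.2 and 104 CPM. Dentate gyrus granule cells had 24.8, 20.6 and 35.2 CPM, close to the 27.6, 27.7 and 23.6 of astrocytes, and microglia had 11.9, 13.3 and 13.2. Interneurons and cerebellar granule cells overlapped and did not differ at the threshold (cerebellar granule cells minus interneurons, log2 -0.08 ± 0.12 SE, interval of 2 SE -0.32 to 0.16, adjusted p = 0.57). Layer V neurons were lower than cerebellar granule cells (log2 difference 1.20 ± 0.12 SE, adjusted p = 7.1e-08) and higher than dentate gyrus granule cells (1.91 ± 0.13 SE, adjusted p = 5.3e-10). Dentate gyrus granule cells and astrocytes overlapped, with a log2 difference of 0.03 ± 0.13 SE (interval -0.22 to 0.29, adjusted p = 0.82). The direction of that comparison turned with the libraries used. Without replicate 3 of the dentate gyrus granule cells the log2 value was -0.20 (adjusted p = 0.042). In batch 2 alone, where each of these types has 1 library and that of the dentate gyrus is replicate 3, it was 0.41.

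Scn2a was the leading alpha gene by TPM in the excitatory neuron types. In cerebellar granule cells it was at 974, 922 and 1008 CPM, and no other library exceeded 365. Layer V neurons had 356, 365 and 359 CPM, dentate gyrus granule cells 319.8, 319 and 296, and interneurons 198, 219 and 194. Glial libraries had 58.1 to 69.1 CPM in astrocytes and 28.0 to 33.6 in microglia. The order of the means was thus cerebellar granule cells, layer V neurons, dentate gyrus granule cells, interneurons, astrocytes and microglia, and each neighbouring pair was called. The smallest step was the one from layer V neurons to dentate gyrus granule cells (log2 difference 0.21 ± 0.07 SE, adjusted p = 0.021). On the TPM scale this pair stood the other way, layer V neurons at 86.7 ± 1.61 and dentate gyrus granule cells at 96.5 ± 2.78, and the call was lost in 11 of the 18 fits that left out 1 library.

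Scn3a, best known as a channel gene of the embryonic and early postnatal brain, was a gene of dentate gyrus granule cells among these types. It was at 90.1, 84.0 and 75.9 CPM there. Layer V neurons had 18.9, 18.7 and 21.3 CPM and interneurons 19.0, 21.2 and 18.8, while astrocytes had 8.67 to 9.20 and microglia 5.90 to 8.02. In cerebellar granule cells the 3 libraries held 5, 0 and 12 estimated counts, and the level was at most 0.25 CPM. The dentate gyrus level exceeded that of interneurons, the next in order, by 2.08 ± 0.14 SE (log2, adjusted p = 3.8e-10). Interneurons and layer V neurons did not differ at the threshold (log2 difference 0.0026 ± 0.14 SE, adjusted p = 0.99) and their libraries overlapped, nor did astrocytes and microglia (0.32 ± 0.15 SE, adjusted p = 0.059). The latter pair was called under several alternatives, among them edgeR with replicate as a block (log2 0.32, adjusted p = 0.049). It was also called in 2 of the 18 fits that left out 1 library. Cerebellar granule cells were below microglia by 5.99 ± 0.28 SE on the log2 scale (adjusted p = 6.6e-13), a size that rests on few counts and ran from -7.19 without cerebellar granule cell replicate 3 to -5.48 without replicate 2.

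Scn8a was the alpha gene that varied least among neurons. For it, dentate gyrus granule cells had 409, 412 and 413 CPM, layer V neurons 398, 381 and 376, cerebellar granule cells 374, 364 and 398, and interneurons 339, 345 and 321. Layer V neurons and cerebellar granule cells overlapped and differed by 0.02 ± 0.07 SE (log2, adjusted p = 0.76), and dentate gyrus granule cells did not pass the threshold against layer V neurons (0.09 ± 0.07 SE, interval -0.04 to 0.23, adjusted p = 0.25). Interneurons were slightly lower than cerebellar granule cells (0.18 ± 0.07 SE, adjusted p = 0.028), a call that was lost without cerebellar granule cell replicate 3 (0.14, adjusted p = 0.11). By TPM, layer V neurons (58.4 ± 1.85) were the lowest of the 4 types and interneurons stood at 62.9 ± 2.77, so the order of these levels depends on the scale. Astrocytes had 77.6 to 89.5 CPM and microglia 56.7 to 71.1.

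Among the 3 beta members, Scn2b led in 3 of the 4 neuron types. Cerebellar granule cells had 1012, 1040.0 and 1053 CPM, interneurons 503, 499.6 and 479.6, layer V neurons 404, 396 and 404, and dentate gyrus granule cells 346, 355 and 381. The groups did not overlap. Each neighbouring pair was called, from cerebellar granule cells over interneurons (log2 difference 1.07 ± 0.06 SE, adjusted p = 1.2e-11) to astrocytes over microglia (1.06 ± 0.06 SE, adjusted p = 1.6e-11). The smallest step, layer V neurons over dentate gyrus granule cells, was 0.15 ± 0.06 SE (adjusted p = 0.028) and lost its call in 13 of the 18 fits without 1 library. By TPM this pair stood the other way, dentate gyrus granule cells at 153 ± 13.4 and layer V neurons at 147 ± 3.83, with overlapping ranges. Glial levels were 62.7 to 76.1 CPM in astrocytes and 32.2 to 34.4 in microglia.

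Scn3b had the order of cell types of Scn3a in its means. The dentate gyrus type had 437, 442 and 408 CPM, interneurons 159.6, 159 and 145, and layer V neurons 101, 98.9 and 105. Astrocytes had 25.0, 30.7 and 27.5 CPM, microglia 15.5, 17.4 and 17.3, and cerebellar granule cells 1.37, 1.21 and 1.30 on 53 to 81 estimated counts. No 2 of these groups overlapped and all 5 neighbouring pairs were called. The step from dentate gyrus granule cells to interneurons was 1.47 ± 0.07 SE (log2, adjusted p = 1.6e-12), and the step from microglia down to cerebellar granule cells was 3.69 ± 0.10 SE (adjusted p = 9.0e-17). Cerebellar granule cells thus had the lowest level of both Scn3a and Scn3b of the 6 types, below the glial libraries.

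Scn4b, whose product can act as an open-channel blocker that supports resurgent sodium current, was highest in layer V neurons at 188, 168 and 176 CPM. Interneurons had 39.6, 45.5 and 82.4 CPM, astrocytes 52.7, 48.6 and 44.8, microglia 31.3, 27.4 and 35.8, dentate gyrus granule cells 4.85, 6.61 and 26.5, and cerebellar granule cells 4.85, 3.96 and 4.28. Layer V neurons exceeded interneurons by 1.67 ± 0.39 SE (log2, adjusted p = 0.0013), and every layer V library lay above every other library. Interneurons and astrocytes (0.20 ± 0.39 SE, adjusted p = 0.66) and astrocytes and microglia (0.63 ± 0.39 SE, adjusted p = 0.15) did not differ at the threshold. The astrocyte and microglia libraries did not overlap, and this pair was called with no count filter (log2 0.69) and without dentate gyrus granule cell replicate 3 (0.59). It was also called without replicate 3 of both dentate gyrus granule cells and interneurons (0.52), a setting chosen after seeing the data.

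For Scn4b, single libraries moved the result. Replicate 3 of the dentate gyrus granule cells and replicate 3 of the interneurons stood apart from the other 2 of their group. The second run of that dentate gyrus replicate gave 9.49 TPM, against 9.78 in the first run and 1.66 to 2.46 in the other 2 replicates. In the dentate gyrus replicate 3, the 4 layer V markers summed to 241 TPM, between the 233 and 264 of replicates 1 and 2. Layer V libraries themselves had 249 to 263 TPM, so this sum cannot show layer V mRNA in dentate gyrus libraries. In the same dentate gyrus replicate, the 7 interneuron markers summed to 294 TPM against 201 and 266. The 5 astrocyte markers summed to 65.9 against 46.3 and 28.3, and the 5 oligodendrocyte markers to 347 against 246 and 269. In interneuron replicate 3, the layer V markers summed to 156 TPM against 112 and 100.3 in replicates 1 and 2, mostly through Rbp4, which was at 118 against 77.3 and 66.0. The other 3 moved little or the other way, with Bcl11b at 27.9 against 23.3 and 23.0, Fezf2 at 2.04 against 1.85 and 1.36, and Etv1 at 8.82 against 9.91 and 9.91. Zic1, a cerebellar granule cell marker, was at 2.16 TPM there against 36.4 and 29.8. The part of these differences in the Scn4b values was not tested. Without replicate 3, the log2 difference of dentate gyrus over cerebellar granule cells fell from 1.54 (adjusted p = 0.0061) to 0.41 (adjusted p = 0.20).

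Each neuron type was next set against the mean log level of the other 3. Cerebellar granule cells were called for 6 of the 7 genes, where 77.1% of all genes tested were called in that comparison. Scn2a, Scn1a and Scn2b were higher (log2 1.77 ± 0.06, 1.41 ± 0.09 and 1.32 ± 0.04 SE), and Scn3a, Scn3b and Scn4b were lower (log2 -8.14 ± 0.25, -7.18 ± 0.09 and -3.52 ± 0.43 SE), and Scn8a was not called (0.01 ± 0.06 SE, adjusted p = 0.88). The values of Scn3a and Scn3b were the largest in size among the members in these 4 comparisons. That of Scn3a rests on 0 to 12 estimated counts per library and ran from -9.35 without cerebellar granule cell replicate 3 to -7.64 without replicate 2.

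Dentate gyrus granule cells were called for all 7 genes, with 63.1% of genes called. Scn3a (4.57 ± 0.13 SE) and Scn3b (3.97 ± 0.05 SE) were higher and Scn1a (-2.73 ± 0.12 SE), Scn4b (-1.46 ± 0.37 SE), Scn2b (-0.71 ± 0.05 SE) and Scn2a (-0.41 ± 0.06 SE) were lower, and Scn8a was higher by 0.17 ± 0.06 SE (adjusted p = 0.013). Within batch 2 alone, where this type has 1 library (replicate 3), the log2 value of Scn4b was -0.36 and that of Scn8a 0.13, neither of them called (adjusted p = 0.45 and 0.37). The value of Scn4b was -2.59 without dentate gyrus replicate 3 and -1.01 without replicate 1, called in both cases.

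Layer V neurons were called for 4 of the 7 genes, with 66.7% of genes called, and interneurons for 6, with 63.6%. In layer V neurons Scn4b (3.60 ± 0.29 SE), Scn3a (1.79 ± 0.15 SE) and Scn3b (1.20 ± 0.06 SE) were higher and Scn2b was lower (-0.50 ± 0.05 SE). In interneurons Scn3b (2.01 ± 0.06 SE), Scn3a (1.79 ± 0.15 SE), Scn1a (1.51 ± 0.09 SE) and Scn4b (1.38 ± 0.31 SE) were higher, and Scn2a (-1.23 ± 0.07 SE) and Scn8a (-0.22 ± 0.06 SE) were lower. The mean of the other 3 types includes cerebellar granule cells, so a positive value for Scn3a or Scn3b in layer V neurons or interneurons stands beside levels 2.09 and 2.08 (Scn3a) and 2.08 and 1.47 (Scn3b) below dentate gyrus granule cells on the log2 scale. Over all 15 pairs of cell types, 95 of 105 member comparisons were called, where 74.3% of all gene comparisons were called. Of the 35 neighbouring pairs in the 7 orders of mean CPM, 27 were called and 8 were not. In batch 2 alone (10 libraries), only interneurons and microglia have 3 libraries and the other 4 types have 1 each, which were assumed to vary like those 2. Members called there were 6 for cerebellar granule cells (67.0% of all genes called), 5 for dentate gyrus granule cells (49.7%), 5 for layer V neurons (55.2%) and 7 for interneurons (58.9%). With all 22 libraries and batch as a term they were 6 (79.1%), 7 (66.2%), 5 (69.7%) and 7 (60.2%) in the same order. These 22 libraries come from 18 replicates, 4 of which were sequenced in both batches, so the second runs are not further replicates.

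**Figure D3:**
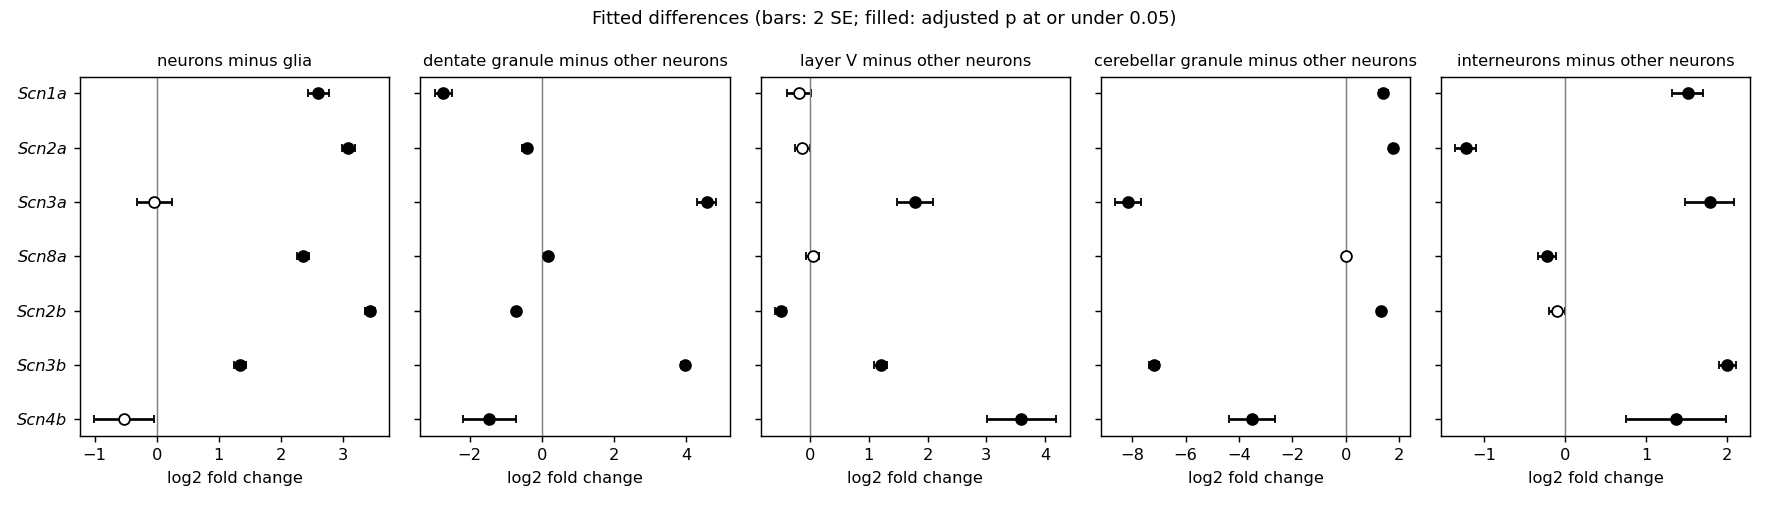
Log2 fold changes of the 7 genes in 5 comparisons (neurons against glia, and each neuron type against the mean of the other 3), with bars of 2 standard errors and filled points where the adjusted p was at or under 0.05. Each panel has its own axis, and the values reach -8.14 for Scn3a in cerebellar granule cells and 4.57 for the same gene in dentate gyrus granule cells.

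The 4 neuron types were then compared with the 2 glial types. Of the 7 genes, 5 were called, all higher in neurons, where 82.6% of genes tested were called and 37.4% were called and higher in neurons. Scn2b differed most (log2 3.43 ± 0.04 SE, adjusted p = 4.6e-21), followed by Scn2a (3.08 ± 0.05 SE), Scn1a (2.60 ± 0.09 SE), Scn8a (2.36 ± 0.05 SE) and Scn3b (1.34 ± 0.05 SE). The median log2 difference of all genes in this comparison was -0.17. In CPM, Scn8a was at 321 or more in every neuronal library and at 89.5 or less in every glial one, and Scn2b at 346 or more and 76.1 or less. The same held for Scn2a, at 194 or more against 69.1 or less.

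These values average over neuron types that differ. Scn3b was lower in cerebellar granule cells than in astrocytes (-4.41 ± 0.09 SE) and microglia (-3.69 ± 0.10 SE), both called, and higher than both in the other 3 neuron types. Scn1a in dentate gyrus granule cells did not differ from astrocytes at the threshold, as given above.

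The genes that did not separate neurons from glia as a whole did so for some neuron types. Scn3a (-0.04 ± 0.14 SE, adjusted p = 0.81) was higher than in astrocytes in dentate gyrus granule cells (3.23 ± 0.15 SE), interneurons (1.15 ± 0.14 SE) and layer V neurons (1.14 ± 0.14 SE), and lower in cerebellar granule cells (-6.31 ± 0.28 SE), all called. The size of the last value rests on 0 to 12 estimated counts per cerebellar granule cell library. Scn4b (-0.52 ± 0.24 SE, adjusted p = 0.054, called under several alternatives) was higher than in astrocytes in layer V neurons (1.86 ± 0.39 SE) and lower in dentate gyrus granule cells (-1.93 ± 0.41 SE) and cerebellar granule cells (-3.47 ± 0.46 SE). Without both replicates 3 that stood apart, a setting chosen after seeing the data, the neuron to glia value of Scn4b was -0.91 and called (adjusted p = 4.7e-09).

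Glial levels of the members were set beside those of neuronal marker genes, both as a percentage of the layer V mean. In astrocytes the members ranged from 17.4 ± 1.68% for Scn2b to 45.3 ± 1.42% for Scn3a, and 5 pan-neuronal markers from 10.1 ± 1.79% for Snap25 to 17.9 ± 1.27% for Syt1. The vesicular glutamate transporter gene Slc17a7, a marker of excitatory neurons, was at 17.7 ± 1.86%. In microglia the members ranged from 8.32 ± 0.28% for Scn2b to 36.2 ± 5.57% for Scn3a, and the pan-neuronal markers from 3.60 ± 0.35% for Snap25 to 14.0 ± 1.50% for Rbfox3. Scn2a and Scn2b lay close to Slc17a7 in both glial types. Scn3a, Scn8a, Scn3b and Scn4b had means above those of all 6 markers in both glial types, with Scn8a at 21.6 ± 1.55% and 16.8 ± 1.92%, Scn3b at 27.3 ± 2.83% and 16.4 ± 1.07% and Scn4b at 27.5 ± 2.25% and 17.8 ± 2.37% in astrocytes and microglia. Scn1a was above all 6 in astrocytes (26.1 ± 2.31%) and below Rbfox3 in microglia (12.7 ± 0.78%). The glial libraries thus held both neuronal marker mRNA and sodium channel mRNA, and the part of the former in the latter was not tested.

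**Figure D4:**
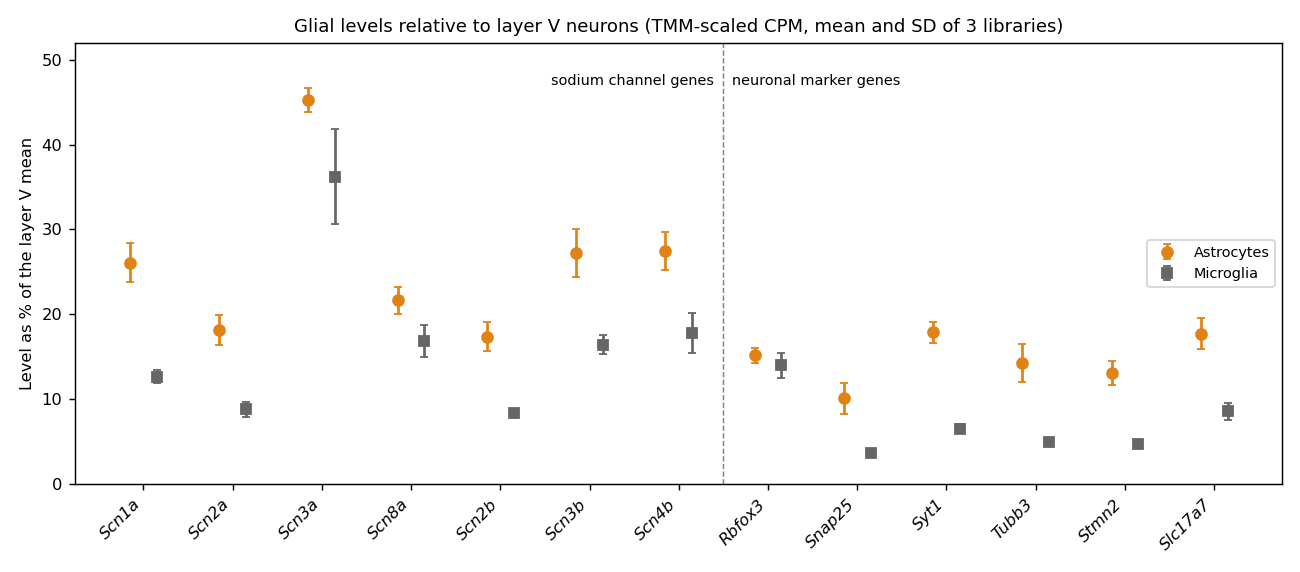
Level in astrocytes (circles) and microglia (squares) as a percentage of the mean layer V level (TMM-scaled CPM, mean and SD of 3 libraries) for the 7 sodium channel genes and 6 neuronal marker genes. Scn3a is highest in both, at 45.3% and 36.2%, and Scn2b is lowest among the members.

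Related genes were counted from lists of 18 genes in all. In neurons against glia, 17 were tested, 12 were higher, 3 were lower and 2 were not called, where 82.6% of all genes were called, and the median log2 difference was 1.21, against -0.17 for all genes tested. Among them the sodium leak channel gene Nalcn was higher in neurons (2.91 ± 0.05 SE).

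Alpha genes best known from skeletal muscle, glia and peripheral neurons were near the floor. Scn7a, Scn9a, Scn10a and Scn11a had mean levels under 2 TPM in every cell type, and Scn4a was too low to be tested. Scn7a was highest in layer V neurons with 267, 307 and 278 estimated counts, and had at most 1 count in any library of cerebellar granule cells. Scn11a had 42, 44 and 42 counts in cerebellar granule cells and at most 16 in any other library.

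Intracellular partners of the channels followed several patterns. The FGF homologous factors bind the channel's cytoplasmic tail. Of these, Fgf12 (3.01 ± 0.05 SE), Fgf13 (2.38 ± 0.03 SE) and Fgf14 (3.22 ± 0.08 SE) were higher in neurons than in glia on average, although Fgf13 was lower in cerebellar granule cells than in astrocytes (-0.42 ± 0.05 SE). The average for Fgf11 (-0.20 ± 0.05 SE) joined neuron types that went opposite ways, with interneurons at 109 ± 1.71 CPM and cerebellar granule cells at 3.39 ± 0.44, against 17.8 ± 0.92 in astrocytes and 26.8 ± 0.075 in microglia. Against the other neurons, Fgf13 was lower in cerebellar granule cells (-2.65 ± 0.05 SE) and higher in dentate gyrus granule cells (1.73 ± 0.04 SE), whereas Fgf14 was higher in cerebellar granule cells (1.93 ± 0.08 SE), and Fgf11 was higher in interneurons (3.37 ± 0.06 SE). Against the mean of both glial types, all 5 axon initial segment partners were called higher in neurons, where 37.4% of all genes tested were. They ran from Sptbn4, which encodes beta-IV spectrin (1.09 ± 0.07 SE), to Cntn1, which encodes the adhesion molecule contactin (2.75 ± 0.05 SE). The glial types were not alike in this. Nrcam, an adhesion molecule gene, had its highest mean in astrocytes (522 ± 47.6 CPM, against 181 to 487 in the neuron types and 32.3 in microglia), and was lower than there in layer V neurons (-0.78 ± 0.08 SE), interneurons (-0.87 ± 0.08 SE) and cerebellar granule cells (-1.53 ± 0.08 SE). Sptbn4 was at 168 ± 21.3 CPM in microglia, and layer V neurons (0.09 ± 0.10 SE, adjusted p = 0.44) and interneurons (0.14 ± 0.10 SE, adjusted p = 0.23) did not differ from that at the threshold. Ank3 was higher in cerebellar granule cells than in the other neurons (1.03 ± 0.09 SE) and lower in interneurons (-0.78 ± 0.10 SE). Nedd4l, whose product ubiquitinates sodium channels, was higher in dentate gyrus granule cells (1.76 ± 0.03 SE) and lower in interneurons (-1.70 ± 0.04 SE).

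The genes with profiles most like each member were listed by Pearson's r of log2 CPM over the 18 libraries among 16168 protein-coding genes. These points are 6 cell types with 3 libraries each, so that the values describe the pattern across 6 types. Scn1a was nearest to Nrxn3 (0.989), Epb41l3 (0.986) and Dcbld2 (0.986), and Scn2a to Csnk1g3 (0.995), Phospho1 (0.992) and Matr3 (0.991). Scn3a was nearest to Dnah5 (0.993), the T-type calcium channel gene Cacna1h (0.983) and Kcnip2 (0.982). Scn8a was nearest to Inpp4a (0.996), Hid1 (0.995) and the NMDA receptor gene Grin1 (0.993), and Scn2b to Nmnat2 (0.998), Aak1 (0.997) and Ccdc92 (0.997). Scn3b was nearest to the neuropeptide Y receptor gene Npy5r (0.997), Matn2 (0.991) and Pcdh19 (0.991), and Scn4b to Trhr2 (0.962), Hs3st2 (0.954) and Slc22a3 (0.954). Between members, the highest values were those of Scn2a with Scn2b (0.967) and Scn3a with Scn3b (0.954).

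Of the 7 members, 5 lie near another member in the genome (GENCODE M21 positions, GRCm38). Scn3a (chr2:65457118-65567627, minus strand), Scn2a (chr2:65620771-65767447, plus strand) and Scn1a (chr2:66270778-66440840, minus strand) follow each other, with gaps of 53.1 kb and 503 kb. Scn2b (chr9:45117782-45130070) and Scn4b (chr9:45138395-45154152), both on the plus strand, are 8.32 kb apart, and Scn3b (chr9:40269217-40291618) is on the same chromosome, 4826 kb from Scn2b. Scn8a is at chr15:100869858-101045938 on the plus strand. Close neighbours differed in where they were highest. Scn3a had its lowest and Scn2a its highest level in cerebellar granule cells, and Scn2b and Scn4b had their highest levels in different types, cerebellar granule cells and layer V neurons.

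Scn2b had 2 annotated transcripts, and the shorter one (Scn2b-201, 3958 bases) took 26.6 ± 5.16% of its TPM in layer V neurons, 26.7 ± 8.69% in microglia, 9.02 ± 1.01% in astrocytes and 6.17 ± 2.97% in interneurons, against 0.44 ± 0.63% in dentate gyrus granule cells and 0.069 ± 0.12% in cerebellar granule cells. Scn8a-205 (11232 bases) was the main Scn8a transcript in every type, from 60.2 ± 5.04% in astrocytes to 85.0 ± 0.75% in layer V neurons. The deposited values hold no error of the read assignment between transcripts, so the SD covers replicates only.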

How the data were processed

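RiboTag mRNA libraries (Kapa Stranded mRNA-Seq, paired reads) were trimmed by the authors with cutadapt 3.5 and quantified with kallisto 0.46.2 against GENCODE M24 (versions also in the submitters' processing notes). The deposited estimated counts are not normalized, and the deposited TPM values are scaled to length and library. Both were summed per gene. Kallisto splits reads between similar paralogs, which the sodium channel genes are.

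Counts were rounded and tested with edgeR 4.0.16 (TMM, quasi-likelihood, 1 fit of 6 cell types) in R 4.3.3, for genes with at least 10 counts in at least 3 libraries, with Benjamini-Hochberg adjustment. DESeq2 1.42.0 was an alternative. Fitted fold changes were not shrunk, and the prior count of 2 was used only for log2 CPM. Tables and figures used Python 3.11.15. The authors' sleuth test was not rerun.

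The 7 members and all gene lists were chosen with earlier results of these data known. Named genes were the members, genes of the lists, and the 3 protein-coding genes nearest to each member. P-values and SE measure spread between 3 replicates per type, pooled over the 6 cell types of the fit. They do not measure only the spread of the types compared, so a library of another type can change a call. For Scn4b, astrocytes minus microglia was not called (log2 0.63 ± 0.39 SE, adjusted p = 0.15, edgeR). It was called without dentate gyrus granule cell replicate 3 (log2 0.59, adjusted p = 0.011, edgeR). Some genes of the lists, and the sequences of alternative exons, are not reported here.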

Additional observations from a re-analysis of the deposited data

How the results depend on the processing

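The number of members called in each comparison, of member calls over the 15 pairs and of all genes called stayed within 1.5 times its value under every alternative run. Leaving out 1 library gave 5 to 6 members for neurons against glia (81.1 to 82.8% of all genes called), 7 to 7 for dentate gyrus granule cells (57.9 to 64.8%), 4 to 6 for layer V neurons (62.2 to 68.6%), 6 to 6 for cerebellar granule cells (73.5 to 79.2%), 6 to 7 for interneurons (58.8 to 65.6%) and 92 to 96 pair calls (73.1 to 74.7%). For single members, 758 values under other alternatives kept direction and side of the threshold in 690, with 14 calls lost, 32 gained and 22 changes of sign, and 1260 values with 1 library left out did so in 1186. Scn4b in neurons minus glia, not called in the report's fit, was called lower with RLE size factors (-0.60), no count filter (-0.54), the batch 2 library of repeated replicates (-0.54), the replicate block (-0.58), protein-coding transcripts (-0.65), without replicate 3 of both dentate gyrus granule cells and interneurons (-0.91, chosen after seeing the data) and in 5 of the 18 fits without 1 library (-0.86 to -0.45 over all 18). It was not called with DESeq2 (-0.60), batch as a term (-0.41), length-scaled counts (-0.48) or batch 2 alone (-0.31). RLE moved the median of all genes by at most 0.12 (log2 -0.12, interneurons against microglia). Comparisons of batch 1 alone were possible only for pairs.

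Changes of sign are listed here as log2 values, and their causes were not tested. One was called, Scn1a in dentate gyrus granule cells minus astrocytes without dentate gyrus granule cell replicate 3 (-0.20, adjusted p = 0.042, edgeR). In batch 2 alone the value of the same comparison was 0.41. That fit has 1 library of each of these types, so it holds no spread of their own and cannot decide the direction. For Scn8a in layer V neurons against the others, the log2 value was -0.0038 with the batch 2 library and -0.020 without both replicates 3. In cerebellar granule cells it was -0.00082 with neuronal libraries only. For layer V over cerebellar granule cells it was -0.0019 with no filter, -0.063 with the batch 2 library, -0.12 in batch 2, -0.026 in batch 1, -0.039 with length-scaled counts and -0.049 without both replicates 3. For Scn1a, dentate gyrus granule cells minus astrocytes was -0.0041 (RLE), -0.0063 (DESeq2), -0.034 (no filter), -0.053 (batch 1), -0.10 (protein-coding) and -0.13 (without both replicates 3), and cerebellar granule cells minus interneurons was 0.073 with batch as a term and 0.092 in batch 2. Scn3a in layer V neurons minus interneurons was 0.0028 (RLE), 0.0027 (DESeq2) and 0.045 (protein-coding). Scn4b in interneurons minus astrocytes was -0.034 with batch as a term and -0.16 without both replicates 3. With 1 library left out, ranges that crossed 0 were -0.34 to 0.088 (Scn3a, neurons minus glia), -0.015 to 0.056 (Scn8a, layer V against others), -0.024 to 0.064 (Scn8a, cerebellar granule cells against others), -0.051 to 0.060 (Scn8a, layer V minus cerebellar granule cells), -0.10 to 0.0051 (Scn1a, cerebellar granule cells minus interneurons), -0.20 to 0.19 (Scn1a, dentate gyrus granule cells minus astrocytes), -0.066 to 0.037 (Scn3a, layer V minus interneurons) and -0.16 to 0.41 (Scn4b, interneurons minus astrocytes).

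Replicate numbers did not pair the samples: the median correlations of deviations between same-numbered libraries were 0.037, -0.013 and 0.048. With the replicate block, 6, 7, 4, 6 and 6 members were called (neurons against glia, then dentate gyrus, layer V, cerebellar and interneuron contrasts), where 82.3, 62.3, 66.2, 76.7 and 63.2% of all genes were called, and 97 of 105 over the pairs, where 73.8% were.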
